A study of Mus musculus with 10 samples.

Results

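The 10 core circadian clock genes Arntl, Npas2, Clock, Cry1, Nfil3, Per2, Per3, Nr1d1, Dbp and Ciart were taken by name from a table of 29868 genes, and all 10 were found. They were chosen with the levels of these same libraries in view, so their differences between the groups are given as a description. Where the number of members called across all genes is printed, it stands beside the share of all genes, and nothing is read from it. The first 5 are called the Arntl arm here and the last 5 the Dbp arm. All 10 passed the filter on low values, which kept 13412 genes with at least 0.5 FPKM (fragments scaled by transcript length and by all mapped fragments) in at least 5 libraries. Arntl passed it through the MI group alone, with 5 MI libraries and 0 Nav libraries at 0.5 FPKM, and Npas2 with 5 and 1.

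The 10 libraries came from wild-type (WT) C57BL/6 male mice, 8 weeks old at the operation. Their left anterior descending coronary artery was ligated to give a myocardial infarction (MI). The 5 MI libraries are from mice given saline by mouth. The 5 Nav libraries (MI + Nav) are from infarcted mice given navarixin, an antagonist of the chemokine receptor CXCR2, by mouth, with 1 mg/kg a day over 4 weeks in the study's general protocol. Both groups therefore carried the infarct, and sham-operated mice were not analysed here. The mice lived under a light and dark cycle, but the sources used here give neither the hour at which tissue was collected nor the mouse behind each library. The labelled batch is the group itself, so treatment, batch and hour of collection cannot be told apart.

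The libraries are labelled as heart, but the defining genes of heart muscle were near 0 in each of them. Of 14 heart muscle markers 13 were in the table, and 11 were below 1 FPKM in every library, with Myh6 at most 0.05 FPKM. The summed level of 12 proximal tubule markers, genes of the kidney nephron, was 33275 to 59696 FPKM in the MI libraries and 36314 to 53552 FPKM in the Nav libraries. The values below hold for the libraries so labelled. The share of mitochondrially encoded genes in the summed FPKM was 24.4 to 45.4%, with the highest shares in MI 3, MI 4, Nav 2 and Nav 3. The depth was estimated at 16740000 to 20470000 fragments per library.

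The clock is a feedback loop of transcription. BMAL1, the product of Arntl, pairs with CLOCK or NPAS2 and switches on genes with E-boxes in their promoters, among them the Per genes, Nr1d1, Dbp and Ciart. PER and CRY proteins then hold the pair back, while REV-ERBα, the product of Nr1d1, silences Arntl, Npas2, Nfil3 and Cry1 through ROR elements, which ROR receptors use to switch them on. DBP switches on genes through D-boxes, where NFIL3 opposes it. In mouse liver, kidney and heart the Arntl and Dbp arms are known to peak at different times of day, and in the kidney the clock shapes the daily course of salt and water handling.

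The members' promoters were read to show which of these elements stand beside the start sites of the genes described below. RefSeq windows on GRCm38.p6, from 250 bases before to 50 bases after a start, were found for 9 of the 10 members at 12 starts. Per2 had no entry. On both strands, the E-box CACGTG, the related CACGTT, the D-box TTATGNAA and the ROR element core TAGGTCA were sought. They are held by 7.15%, 4.68%, 3.38% and 2.61% of all 32851 promoters of this length. The windows that held a ROR element core, a D-box or several E-boxes are printed, 5′ to 3′, with these motifs in capitals.
Arntl, downstream start, chr7:113207261-113207560, plus strand: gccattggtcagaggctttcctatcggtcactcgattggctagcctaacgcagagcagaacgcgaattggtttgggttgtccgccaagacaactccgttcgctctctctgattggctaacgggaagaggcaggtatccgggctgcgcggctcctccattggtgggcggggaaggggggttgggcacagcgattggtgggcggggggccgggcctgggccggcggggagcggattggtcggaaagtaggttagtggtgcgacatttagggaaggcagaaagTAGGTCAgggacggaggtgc
Nfil3, chr13:52980990-52981289, minus strand: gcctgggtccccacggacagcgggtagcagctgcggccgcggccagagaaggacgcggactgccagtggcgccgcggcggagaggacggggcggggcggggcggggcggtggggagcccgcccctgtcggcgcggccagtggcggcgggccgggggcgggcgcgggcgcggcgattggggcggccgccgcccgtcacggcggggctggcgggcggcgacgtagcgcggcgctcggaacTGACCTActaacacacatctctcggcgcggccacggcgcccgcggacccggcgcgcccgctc
Per3, chr4:151044616-151044915, minus strand: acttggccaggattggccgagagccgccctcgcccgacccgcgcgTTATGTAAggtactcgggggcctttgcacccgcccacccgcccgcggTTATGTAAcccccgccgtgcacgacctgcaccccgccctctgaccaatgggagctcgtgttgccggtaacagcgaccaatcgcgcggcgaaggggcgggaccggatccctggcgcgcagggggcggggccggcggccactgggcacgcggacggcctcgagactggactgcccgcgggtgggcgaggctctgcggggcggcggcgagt
Ciart, chr3:95882179-95882478, minus strand: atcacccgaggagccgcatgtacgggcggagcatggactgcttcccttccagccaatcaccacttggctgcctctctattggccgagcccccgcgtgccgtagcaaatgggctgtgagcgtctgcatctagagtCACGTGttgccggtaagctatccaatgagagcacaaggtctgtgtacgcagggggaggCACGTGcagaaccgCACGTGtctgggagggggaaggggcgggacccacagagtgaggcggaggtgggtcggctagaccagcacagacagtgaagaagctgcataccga
The Arntl window held the ROR element core 30 bases after its start, and the Nfil3 window held it on the other strand (TGACCTA) 12 bases before its start. Per3 held 2 D-boxes, 205 and 158 bases before the start, and Ciart 3 E-boxes, 116, 58 and 44 bases before it. Of the windows not printed, Cry1 held an E-box and a CACGTT on the other strand, and Nr1d1 a CACGTT on the other strand. The windows of Npas2, Clock and Dbp and the upstream start of Arntl held none of these letters. A match is a description of sequence and no evidence that a factor binds there.

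By mean level over the 10 libraries of both groups, Dbp (12.4 FPKM) and Nr1d1 (12.0 FPKM) were the most abundant members. Nfil3 (2.42 FPKM), Clock (2.37 FPKM), Per2 (1.73 FPKM) and Per3 (1.56 FPKM) followed. Npas2 (0.873 FPKM), Arntl (0.715 FPKM), Ciart (0.696 FPKM) and Cry1 (0.612 FPKM) were the least abundant. Neighbours in this order had overlapping ranges except Nr1d1 and Nfil3, whose lowest and highest libraries were at 6.63 and 4.27 FPKM. The order was not the same in each group. The 4 least abundant were Npas2 (1.31), Arntl (1.14), Cry1 (0.695) and Ciart (0.581 FPKM) in the MI group and Ciart (0.811), Cry1 (0.529), Npas2 (0.440) and Arntl (0.290 FPKM) in the Nav group, and Dbp lay below Nr1d1 in the MI group and above it in the Nav group. Within groups, Ciart was the most variable member, with a coefficient of variation of 67.9% in the MI group and 46.9% in the Nav group. It was 41.5 and 20.6% for Arntl, 31.9 and 29.7% for Dbp, 25.0 and 24.0% for Npas2, and 22.6 and 11.8% for Clock. The low members rest on few fragments, an estimated 7 to 42 per library for Ciart, 18 to 125 for Arntl and 21 to 67 for Cry1, against 163 to 725 for Dbp.

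Arntl and Npas2, which encode BMAL1 and the stand-in for its usual partner CLOCK, were lower in every Nav library than in any MI library. Dbp was higher in every Nav library. The other 7 members, Clock among them, overlapped between the groups. Among all tested genes, 2.84% did not overlap, 2.57% being lower and 0.268% higher. Since the members were picked on these values, nothing is read from their share.

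**Figure D1:**
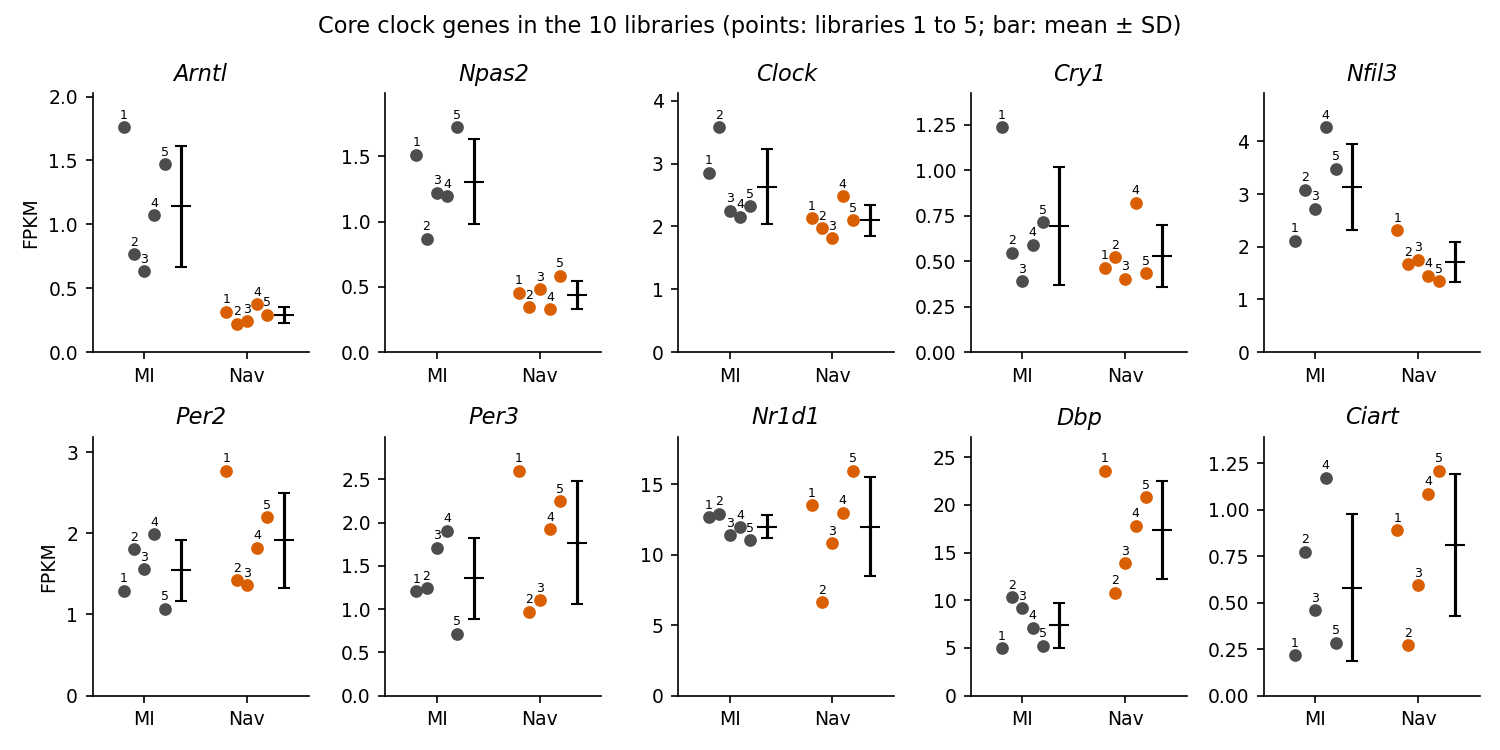
FPKM of each clock gene (vertical axes from 0, each with its own range) in the 5 MI and 5 Nav libraries; points are libraries with their replicate number, and the bar is the mean ± SD. Arntl and Npas2 lie lower in all 5 Nav libraries, Dbp lies higher, and the other 7 genes overlap between the groups.

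Arntl encodes BMAL1, the partner that every activating complex of the clock shares (ENSMUSG00000055116, chromosome 7, 113207465 to 113314126, mm10). It was at 1.76, 0.766, 0.633, 1.07 and 1.47 FPKM in MI 1 to MI 5 and at 0.316, 0.224, 0.245, 0.375 and 0.292 FPKM in Nav 1 to Nav 5. The lowest MI library thus stood above the highest Nav library, and the Nav libraries lay closer together than the MI libraries. The MI and Nav means were 1.14 ± 0.473 and 0.290 ± 0.0600 FPKM (SD, n = 5 each), a ratio of 0.255. On the log2(FPKM + 0.5) scale, which understates changes of low genes, the difference was -1.01 (SE 0.192). Exons of Arntl overlap Gm45355 on the other strand, and the sources used here do not give the strand setting of the counting.

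Npas2 encodes a stand-in for CLOCK (ENSMUSG00000026077, chromosome 1, 39193731 to 39363236). Its levels were 1.51, 0.871, 1.22, 1.20 and 1.72 FPKM in MI 1 to MI 5 and 0.457, 0.344, 0.483, 0.331 and 0.586 FPKM in Nav 1 to Nav 5. No library of one group reached the other, with means of 1.31 ± 0.326 and 0.440 ± 0.105 FPKM (SD, n = 5 each), a ratio of 0.337 and a log2 difference of -0.93 (SE 0.160). Clock itself, the usual partner of BMAL1 (ENSMUSG00000029238, chromosome 5, 76209868 to 76304792), was at 2.85, 3.58, 2.25, 2.16 and 2.32 FPKM in MI 1 to MI 5 and at 2.13, 1.98, 1.82, 2.49 and 2.10 FPKM in Nav 1 to Nav 5. Its groups overlapped through Nav 4, and its log2 difference of -0.25 (SE 0.151) was smaller than those of Arntl and Npas2.

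Nfil3, the repressor at D-boxes (ENSMUSG00000056749, chromosome 13, 52967209 to 52981073), was at 2.12, 3.09, 2.72, 4.27 and 3.48 FPKM in MI 1 to MI 5 and at 2.32, 1.68, 1.76, 1.45 and 1.35 FPKM in Nav 1 to Nav 5. The groups met only in MI 1 and Nav 1, and the means were 3.14 ± 0.808 and 1.71 ± 0.378 FPKM (SD, n = 5 each), with a log2 difference of -0.71 (SE 0.178). Cry1, which encodes a repressor of the BMAL1 complex (ENSMUSG00000020038, chromosome 10, 85131700 to 85185064), was at 1.24, 0.547, 0.389, 0.591 and 0.713 FPKM in MI 1 to MI 5 and at 0.464, 0.524, 0.405, 0.821 and 0.434 FPKM in Nav 1 to Nav 5. MI 1 and Nav 4 were the high libraries of their groups, the groups overlapped, and the log2 difference was -0.19 (SE 0.190).

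Dbp encodes an activator at D-boxes and is a standard readout of clock output (ENSMUSG00000059824, chromosome 7, 45705088 to 45710203). It was at 4.98, 10.3, 9.15, 7.13 and 5.25 FPKM in MI 1 to MI 5 and at 23.6, 10.8, 13.9, 17.8 and 20.8 FPKM in Nav 1 to Nav 5. The groups were separated narrowly, between MI 2 and Nav 2, and after rescaling to the same sum without mitochondrially encoded genes they overlapped. The means were 7.37 ± 2.35 and 17.4 ± 5.15 FPKM (SD, n = 5 each), a ratio of 2.36 and a log2 difference of 1.18 (SE 0.241). Exons of Dbp overlap Sphk2 on the other strand.

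The other members of the Dbp arm did not share its separation. Per2, a repressor of the loop (ENSMUSG00000055866, chromosome 1, 91415982 to 91459324), was at 1.29, 1.80, 1.56, 1.99 and 1.07 FPKM in MI 1 to MI 5 and at 2.77, 1.42, 1.36, 1.82 and 2.20 FPKM in Nav 1 to Nav 5. Per3, its paralog (ENSMUSG00000028957, chromosome 4, 151003652 to 151044665), was at 1.21, 1.24, 1.71, 1.91 and 0.715 FPKM in MI 1 to MI 5 and at 2.60, 0.969, 1.10, 1.92 and 2.25 FPKM in Nav 1 to Nav 5. For both genes Nav 1 and Nav 5 were the highest libraries of all and Nav 2 and Nav 3 lay within the MI range, with log2 differences of 0.23 (SE 0.188) and 0.27 (SE 0.240).

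Nr1d1, which encodes the repressor REV-ERBα (ENSMUSG00000020889, chromosome 11, 98767932 to 98775333), was at 12.7, 12.9, 11.4, 11.9 and 11.0 FPKM in MI 1 to MI 5 and at 13.5, 6.63, 10.8, 13.0 and 15.9 FPKM in Nav 1 to Nav 5. The means were nearly equal, at 12.0 ± 0.804 and 12.0 ± 3.50 FPKM (SD, n = 5 each), but the coefficient of variation was 6.70% in the MI group and 29.3% in the Nav group, where Nav 2 was low and Nav 5 high. Its log2 difference was -0.05 (SE 0.196) and changed sign with the scaling. Exons of Nr1d1 overlap Thra on the other strand. Ciart, a repressor of the BMAL1 complex (ENSMUSG00000038550, chromosome 3, 95878503 to 95882231), was at 0.216, 0.774, 0.459, 1.17 and 0.285 FPKM in MI 1 to MI 5 and at 0.891, 0.272, 0.596, 1.09 and 1.21 FPKM in Nav 1 to Nav 5. Its libraries were spread widely in both groups, and the log2 difference of 0.30 was about the size of its standard error, 0.266.

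In the fit of limma over all 13412 genes, 30 genes (0.224%) passed both an adjusted p under 0.05 (Benjamini-Hochberg) and a log2 difference of 1 or more in size, which is meant by called. In the Nav group 29 of them (0.216% of tested genes) were the lower and 1 (0.00746%) the higher. After scaling by median-of-ratios size factors, 15 were lower and 5 higher. Of the members, 1 was called (Arntl) and 2 passed the adjusted p at any fold change (Arntl and Npas2), where 0.35% of all genes passed as lower and 0.0149% as higher (0.365% together). Both genes reached the test through the MI group, in which they are the higher, and were picked on these values, so these counts are no evidence about the members. With each library left out in turn, the log2 difference of Arntl ranged from -1.13 to -0.88 and that of Dbp from 1.06 to 1.34. Of these fits, each of the pair was called only in the one without MI 4. After size factor scaling the called member was Dbp (1.355) and not Arntl (-0.91). Without MI 3, MI 4, Nav 2 and Nav 3, the libraries of highest mitochondrial share, Dbp differed by 1.59. The median difference of all tested genes was -0.12 as deposited and 0.03 after scaling by size factors. Relative to the median of the deposited values, Arntl was at -0.89, Npas2 at -0.81, Nfil3 at -0.58, Dbp at 1.31, and the other 6 members between -0.13 and 0.42.

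**Figure D2:**
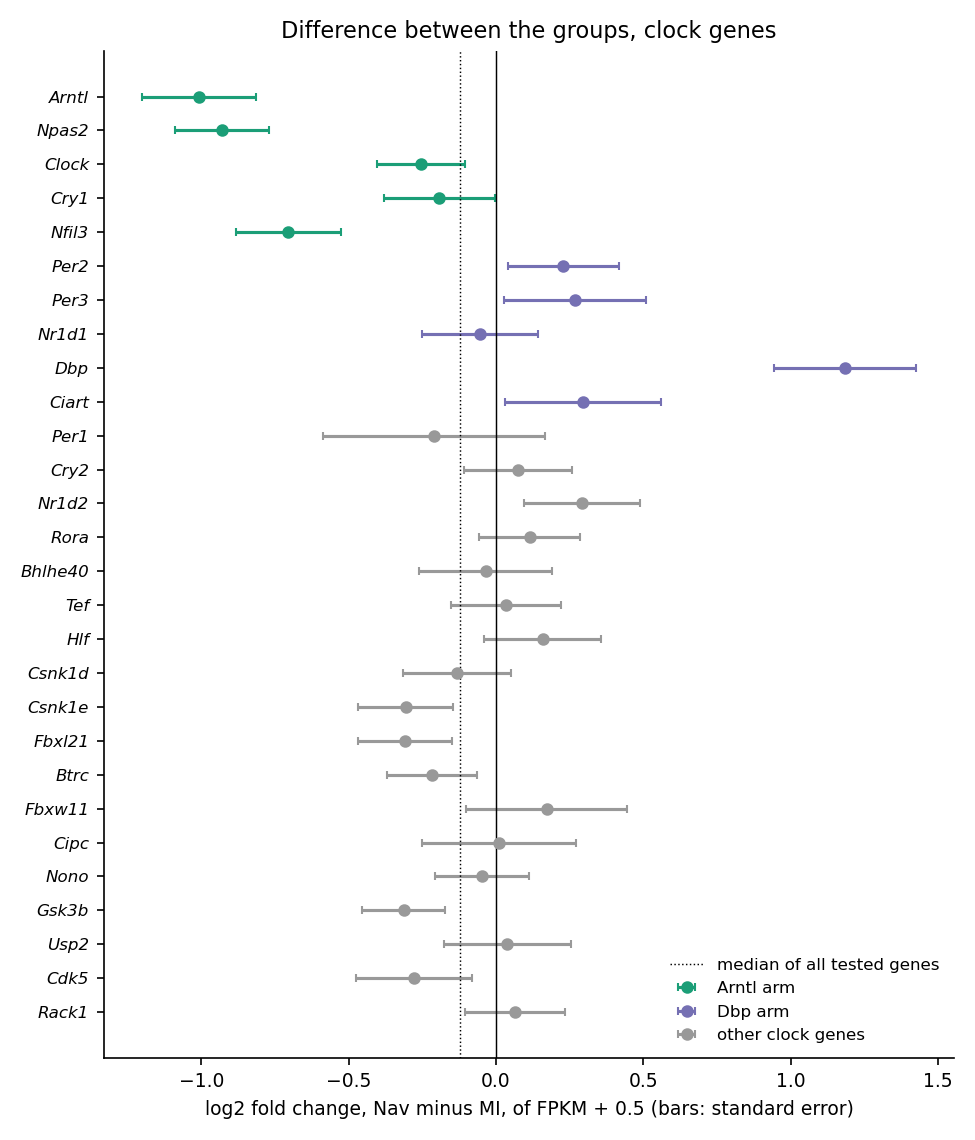
Difference between the groups (horizontal axis: Nav minus MI, log2 of FPKM + 0.5) for the 10 members and 18 of the 20 other clock genes tested; points are limma estimates with their standard errors, and the dotted line is the median of all tested genes, -0.12. Arntl (-1.01), Npas2 (-0.93) and Nfil3 (-0.71) lie to the left and Dbp (1.18) to the right, while the other clock genes shown lie between -0.31 and 0.29.

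Ratios between members of the same library do not depend on how the library was scaled. The ratios were chosen after the values were seen. Dbp over Arntl was 2.83, 13.5, 14.5, 6.65 and 3.58 in MI 1 to MI 5 and 74.5, 48.2, 56.7, 47.5 and 71.1 in Nav 1 to Nav 5, so that the lowest Nav library exceeded the highest MI library. Dbp over Nr1d1 was 0.393 to 0.803 in the MI libraries (median 0.597) and 1.28 to 1.75 in the Nav libraries (median 1.37). Dbp was thus the lower of this pair in every MI library and the higher in every Nav library. Dbp over Per2 had medians of 4.91 (MI) and 9.47 (Nav), again without overlap. Arntl over Cry1 was 1.40 to 2.06 in the MI group and 0.428 to 0.682 in the Nav group. Within the Arntl arm Arntl over Clock ranged from 0.214 to 0.632 in the MI group and from 0.113 to 0.151 in the Nav group, while the ranges of Npas2 over Clock overlapped (0.243 to 0.742 and 0.133 to 0.279). Members of the same arm therefore differed between the groups by unequal amounts.

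**Figure D3:**
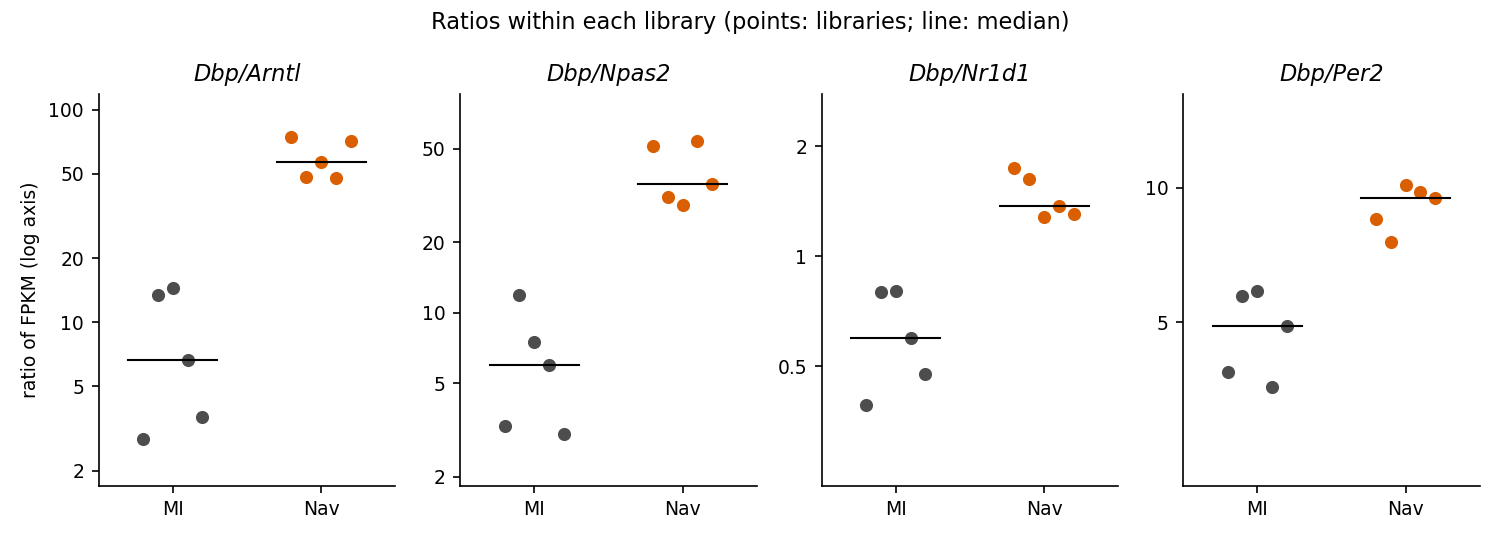
Ratio of the FPKM of Dbp to that of Arntl, Npas2, Nr1d1 and Per2 in each library (vertical axes are log axes with separate ranges); points are libraries and lines are group medians. All 5 Nav libraries lie above all 5 MI libraries in each panel, with medians of 6.65 and 56.7 for Dbp over Arntl.

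The level of an arm in a library was taken as the mean of log2(FPKM + 0.5) over its 5 genes. The Arntl arm was at 1.22, 0.95, 0.79, 1.04 and 1.18 in MI 1 to MI 5 and at 0.50, 0.35, 0.36, 0.50 and 0.39 in Nav 1 to Nav 5. The Dbp arm was at 1.46, 1.91, 1.79, 1.98 and 1.33 in MI 1 to MI 5 and at 2.44, 1.49, 1.81, 2.22 and 2.42 in Nav 1 to Nav 5. The Arntl arm did not overlap between the groups and differed by -0.62, and the Dbp arm overlapped and differed by 0.38. These are means over unequal members. They ran from -1.01 (Arntl) to -0.19 (Cry1) in the Arntl arm and from 1.18 (Dbp) to -0.05 (Nr1d1) in the Dbp arm. MI 1 and MI 5 had the highest Arntl arm and the lowest Dbp arm of the MI group. In the Nav group, Nav 2 and Nav 3 had the lowest levels of both arms.

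The correlation of the arms had opposite signs in the groups as deposited. Pearson's r was -0.687 and Spearman's rho -0.5 over the 5 MI libraries, and r was 0.707 and rho 0.7 over the 5 Nav libraries. These are descriptions of 5 points that share library, depth and scaling. Over the 10 libraries with group means subtracted, r was -0.139 and rho 0.00606. Without MI 1 and MI 3, the libraries farthest from the median of the centred Arntl arm, r was 0.0568 and rho 0.0952 (n = 8). Without MI 1 and MI 5, the farthest from the median before centring, r was 0.561 and rho 0.643 (n = 8). The value thus depended on which libraries were left out. No relation over the 10 libraries is read from these values. After median-of-ratios scaling r was -0.44 in the MI group, -0.82 in the Nav group and -0.57 over the 10 centred libraries. Nav 2, with a mitochondrial share of 45.4%, moved from the lowest to the highest Arntl arm of its group under this scaling.

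**Figure D4:**
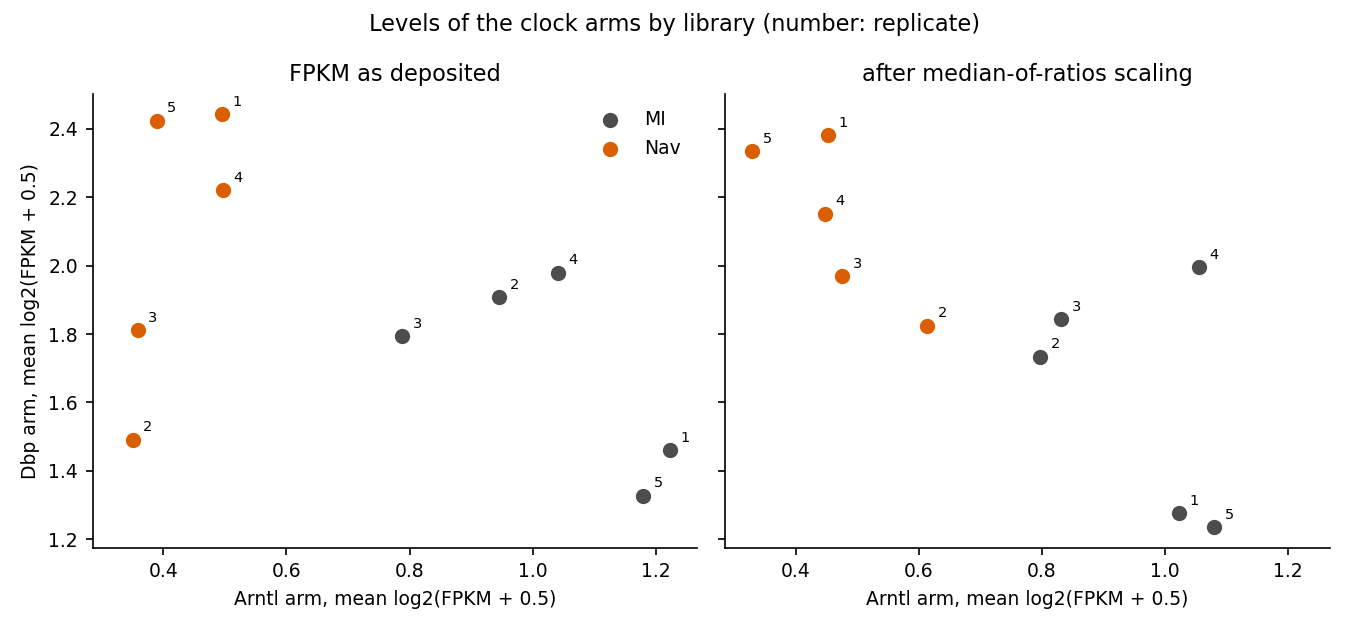
Level of the Dbp arm against the level of the Arntl arm (both axes: mean of log2(FPKM + 0.5) over 5 genes) in each library, as deposited (left) and after median-of-ratios scaling (right); numbers are replicates. Within the Nav group the libraries run upward together on the left (r = 0.707) and in opposite directions on the right (r = -0.82).

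Across single genes, the members of the Dbp arm varied together and those of the Arntl arm did not. With group means subtracted, all 10 pairs within the Dbp arm had a positive r over the 10 libraries, from 0.592 (Per2 and Nr1d1) to 0.905 (Per2 and Per3), and from 0.392 to 0.864 after size factor scaling. Of the 10 pairs within the Arntl arm 5 were positive, and the highest was Arntl with Cry1 at 0.847, the lowest Npas2 with Clock at -0.508. Between the arms, 12 of 25 pairs were positive as deposited and 6 after size factor scaling. A positive r was common among all genes as deposited. Among 11488 tested genes outside the members, an r of 0.0548 to Arntl would rank at 9148, and 0.183 to Dbp at 6653. The counts of positive pairs are therefore descriptions only. Dbp with Arntl was at -0.525, but the sign differed by group, at -0.957 in the MI and 0.715 in the Nav libraries (n = 5 each). Within single groups (n = 5 each), Nr1d1 with Per2, Per3, Dbp and Ciart was at 0.447, 0.228, 0.234 and 0.215 in the MI libraries. In the Nav libraries these pairs were at 0.699, 0.857, 0.912 and 0.971, so the joint variation of Nr1d1 came mostly from the Nav group.

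The genes most like Arntl and Dbp were sought among 11488 tested genes outside the members, with a mean of at least 1 FPKM. The measure was r over the 10 libraries with group means subtracted. Taf6l (0.916), Rufy1 (0.896), BC048403 (0.876), Ppa2 (0.865) and Rabepk (0.86) were most like Arntl. The lowest were 1810041H14Rik (-0.879), Brms1 (-0.815), mt-Tf (-0.787), Mrip-ps (-0.745) and Mir703 (-0.744). Most like Dbp were Glt8d1 (0.937), Wdfy1 (0.929), Ptpdc1 (0.915), Mre11a (0.902) and Morc3 (0.898), and least like it Apoo (-0.884), Dusp9 (-0.874), Ly96 (-0.811), Fam92a (-0.804) and Rab9 (-0.804). None of these is among the other clock genes, and the members could not appear since they were left out. Of the members, Cry1 was at 0.847 to Arntl, which would rank at 10. Among the clock genes, r to Dbp was 0.825 for Per2, 0.801 for Tef, 0.769 for Per3, 0.732 for Ciart, 0.7 for Nr1d2 and 0.699 for Cry2.

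Among the other parts of the clock, 1 tested gene, Gsk3b, did not overlap between the groups, being lower. Of all tested genes 2.57% were lower without overlap and 2.84% did not overlap in either direction, so nothing is read from this count. Of 24 other clock genes 20 were tested. None was called (0.224% of all tested genes were) or passed an adjusted p under 0.05 from limma in either direction (0.365%). Their median log2 difference was -0.04, beside -0.12 for all genes. At an unadjusted p under 0.05, 1 was lower and 0 were higher, against 11.5% and 1.25% of all tested genes. This balance of all genes turned with the scaling, from 1544 lower and 167 higher as deposited to 934 lower and 1177 higher after scaling by size factors. That gene was again Gsk3b, a kinase of clock proteins, with a log2 difference of -0.31 (unadjusted p = 0.0447 from limma). Nr1d2, the paralog of Nr1d1, was at 13.7, 20.1, 11.8, 11.5 and 10.2 FPKM in MI 1 to MI 5 and at 17.6, 11.0, 16.1, 18.2 and 19.0 FPKM in Nav 1 to Nav 5, which overlap, with a log2 difference of 0.29 (SE 0.197). Per1, the paralog of Per2, ranged over the MI libraries from 1.14 to 7.59 FPKM, with MI 4 the highest, and from 1.26 to 2.96 FPKM in the Nav group. On the log2 scale Hlf differed by 0.16, Cry2 by 0.08, Usp2 by 0.04 and Tef by 0.03. Tef and Hlf encode the relatives of DBP. Rack1 and Nono, which with Tef were among the most abundant of the list, differed by 0.06 and -0.05. Timeless, Bhlhe41, Rorb and Arntl2 fell below the filter. Timeless was at 0.386 to 0.636 FPKM in MI and 0.171 to 0.367 FPKM in Nav libraries.

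Genes that the clock is known to drive in kidney and other tissues were read from 2 further lists. None of their members was called or passed an adjusted p under 0.05 from limma, as 0.224% and 0.365% of all tested genes did. At an unadjusted p under 0.05 from limma, 11.5% of all tested genes were lower and 1.25% higher as deposited. Of 15 rhythmic output genes, 0 passed even an unadjusted p under 0.05 (median log2 difference -0.11), and their most abundant members Pck1, Por, Klf15 and Nampt differed by -0.29, -0.11, 0.06 and 0.12. Of 12 tested clock-linked kidney transport genes, 3 were lower and 1 was higher at an unadjusted p under 0.05, with a median of -0.32. These were Scnn1a, a subunit of the epithelial sodium channel (-0.42), Slc12a3, the thiazide-sensitive cotransporter (-0.91), Fxyd5 (-0.60) and the water channel Aqp4 (0.99), all 4 overlapping between the groups. The most abundant of this list, Atp1b1, Slc22a8, Aqp2 and Slc12a3, were at 479 and 491, 92.6 and 97.3, 60.4 and 88.0, and 35.0 and 20.8 FPKM on average in the MI and Nav groups. The kidney transport genes rest on the same libraries as the members, and their relation to the clock was not tested.

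Glucocorticoids and body temperature set the phase of clocks outside the brain, so genes that respond to them were read beside the members. Of 11 tested glucocorticoid-responsive genes 0 passed an unadjusted p under 0.05 from limma (median -0.09), which 12.8% of all tested genes passed. Errfi1, Klf9, Mt1 and Dusp1, the most abundant, differed by -0.27, 0.11, 0.01 and -0.76. Of 10 temperature-responsive genes, heat shock proteins and cold-inducible RNA-binding proteins, 0 passed (median 0.02), with Hspa8, Hspd1, Hspe1 and Hsp90aa1, the most abundant, at 0.01, -0.07, -0.01 and -0.22. None of either list passed an adjusted p under 0.05 from limma, which 0.365% of all tested genes passed.

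Markers of other cells moved with the groups. The summed level of 10 endothelial markers was 34.3 to 101 FPKM in the MI libraries and 16.3 to 46.6 FPKM in the Nav libraries, and of 9 tested, all 9 were lower at an unadjusted p under 0.05, with a median log2 difference of -1.17. Of these 1, Eng, was called, and 3 did not overlap between the groups, beside 2.57% of all tested genes as lower. Vwf, the endothelial marker below the filter, was near 0 and not lower, with means of 0.0583 (MI) and 0.0767 FPKM (Nav). Plvap, the most abundant endothelial marker, was at 11.0 to 35.2 FPKM and 3.74 to 16.3 FPKM. The summed level of 12 leukocyte markers was 55.6 to 201 FPKM and 26.6 to 60.5 FPKM, and 6 of 7 tested were lower at that p, with Cd74 at 34.0 to 147 FPKM and 15.8 to 40.4 FPKM. Of all tested genes as deposited, 11.5% were lower at that p and 0.216% were called as lower. Of the defining leukocyte markers, Ptprc and Cd3e fell below the filter and overlapped between the groups. Ptprc was at 0.160 to 0.741 FPKM in MI and 0.125 to 0.274 FPKM in Nav libraries. Cd3e was near 0 in both groups, at most 0.104 FPKM in MI and 0.0459 FPKM in Nav libraries. The part of these cells in the levels of the clock genes was not tested, and in bulk tissue fewer cells of a type and less RNA per cell cannot be told apart.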

How the data were processed

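RNA sequencing of 10 libraries, 5 MI and 5 Nav, was analysed from FPKM values that the authors deposited, 1 column per library. Per the submitters' processing notes and the methods, reads of poly(A)-selected, strand-marked libraries were trimmed with cutadapt 1.9, aligned to mm10 with HISAT2 2.0.4 and quantified with StringTie 1.3.4d, and the authors tested counts with DESeq2 and edgeR. Counts were not used here. The annotation release and the strand setting are not given in the sources used here, and 99.67% of gene IDs are in GENCODE M21.

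Genes reaching 0.5 FPKM in 5 or more libraries (13412) entered a model of group on log2(FPKM + 0.5), fitted in R 4.3.3 with limma 3.58.1 (trend and robust prior, Benjamini-Hochberg adjustment). For an estimate of depth, 1 fragment was set to the commonest low value among genes with a single transcript, after scaling for length. Fragments per gene follow from the longest transcript.

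As alternatives, the pseudocount, the filter and the scaling were changed, and fits used array weights, the mitochondrial share as covariate, a replicate block, or left out single libraries or the 4 of highest mitochondrial share.

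The members and lists were chosen with earlier results of these data known. Named were all members, selected clock genes, list members past the adjusted p or otherwise the 4 most abundant, and the 5 genes of highest and lowest r to Arntl and Dbp. Some genes that this rule takes are not reported here. Gsk3b, Timeless, Scnn1a, Fxyd5, Aqp4 and the ratios were chosen after their values were seen. Replicates may be technical in part, since the labels do not name the mice, and p-values measure only the spread between these libraries.

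The fit was tested on simulated data for this comparison with 13412 genes, counting an adjusted p under 0.05 from limma at any fold change. It found 74% of the genes changed by log2 1 and 98% of those changed by log2 2. Unchanged genes that passed numbered 7.8 on average over 5 draws. The noise was drawn independently for each gene and library, without effects shared within a library. These rates therefore need not hold for the real libraries or for the genes called.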

Additional observations from a re-analysis of the deposited data

Results flagged for a closer look

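Cry1 in Nav 4 stood apart from its group, at 0.821 FPKM against 0.405 to 0.524 FPKM in the other 4 Nav libraries. Its gap to the nearest library was 0.714 of the group's range, just above the 95% critical value of Dixon's test for 5 samples. It was the 1 such case among 40 groups of values checked, and chance gives about 1 in 20.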

How the results depend on the processing

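The direction of the group difference held under every alternative fitted for Arntl, Npas2, Cry1 and Ciart (19 each) and for Clock, Nfil3, Per2, Per3 and Dbp (20 each), and for Nr1d1 in 15 of 20. The number of genes called, 30 in all and 1 among the members, was 18 and 0 with a pseudocount of 1 and 0 and 0 with no filter on low values (2490 lower and 319 higher genes had an unadjusted p under 0.05). It was 117 and 2 with limma array weights, 167 and 2 without the 4 libraries of highest mitochondrial share (added after seeing the data), and 49 and 2 at any fold change. Among the members, 2 were called with a pseudocount of 0.1, 0 with a filter at 1 FPKM, which removed Arntl, Npas2, Cry1 and Ciart before the test, and 0 with the mitochondrial share as covariate. Leaving out single libraries gave 1 to 197 called genes and 0 to 2 called members, the highest of both without MI 4. With a replicate block, 6 genes and 0 members were called, but same-numbered libraries did not deviate together (r from -0.223 to 0.046), so the block pairs nothing that the labels name. No gene of the 5 lists of other genes was called under any of the alternatives run. In the main fit 0.224% of all tested genes were called, so nothing is read from this about the lists.

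The difference of the Arntl arm, -0.62, was -0.87 with a pseudocount of 0.1 and -0.47 with a pseudocount of 1, and that of the Dbp arm, 0.38, was 0.80 without the 4 libraries of highest mitochondrial share. The correlation of the arms moved most. In the MI group it was -0.53 after rescaling without mitochondrially encoded genes, -0.44 after size factor scaling, -0.54 from z-scores, -0.93 without the 4 libraries (n = 3) and between -0.87 and -0.58 with single libraries left out. In the Nav group it was -0.82 after size factor scaling, -0.44 without the 4 libraries (n = 3), 0.55 from z-scores and between 0.57 and 0.94 with single libraries left out. Over the 10 centred libraries it was -0.020 after rescaling without mitochondrially encoded genes, -0.57 after size factor scaling and -0.86 without the 4 libraries, and between -0.36 and 0.04 with single libraries left out, with 0.0034 without MI 1 and 0.039 without MI 5. The cause was not tested. Depth limits the members of lowest level, Ciart, Arntl and Cry1, whose estimated fragments fell to 7, 18 and 21 in their lowest libraries.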
